A study of Homo sapiens with 2 samples.

Results

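A set of 10 human genes that mark lymphoid priming or encode lymphoid transcription factors was followed in single cells emerging from a pluripotent stem cell culture: the interleukin-7 receptor gene *IL7R*, the cytokine gene *LTB*, *IGLL1*, *DNTT*, *RAG1*, *TCF7*, *LEF1*, *GATA3*, *BCL11B* and *EBF1*. They were chosen by symbol, as 10 of the 32738 genes in the count table. They were read in the 7550 of 10836 cell barcodes that carried a single hashtag call and stayed within limits of 36000 unique molecular identifiers (UMIs, each standing for 1 captured RNA molecule), 6000 genes and a mitochondrial (MT-) share of 18%. The cells came from the induced pluripotent stem cell line IPS11, from which CD34+ cells were made and cultured through the endothelial-to-hematopoietic transition (EHT), the step at which hemogenic endothelium gives rise to blood cells. On day 5, nonadherent cells were collected from 4 plating conditions: uncoated plastic, the adhesion protein VCAM1, the notch ligand DLL4, and DLL4+VCAM1. The wells of a condition were combined, each combined sample was stained with its own hashtag antibody, and all were run as 1 RNA library. The table that ties hashtags 0252, 0253, 0254 and 0255 to coatings was not given in the sources used here, so hashtags are called by number and no coating effect is stated.

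Lymphoid progenitors switch on these genes in a rough order. IL-7 receptor signaling sustains early lymphocytes. *LTB* encodes lymphotoxin beta, a membrane-bound cytokine of lymphocytes and lymphoid tissue inducer cells. *IGLL1* encodes part of the surrogate light chain of the pre-B cell receptor and is also known from early multipotent progenitors. *DNTT* and *RAG1* encode enzymes that cut and extend the gene segments of antigen receptors. Notch signaling directs progenitors to the T lineage, where *TCF7*, *GATA3* and *BCL11B* encode factors of T cell specification and commitment, *LEF1* encodes a relative of TCF7, and *EBF1* encodes a factor of B cell specification.

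Depth was similar among hashtags, with 1571 to 2136 cells each, and the median cell held 18318.5 UMIs. With 1 library and no replicate culture, the differences below carry no p-value. Intervals are exact 95% intervals that cover counting error only, and cells of a pool are not replicates of its condition. Levels are given as counts per 1000000 UMIs (CPM) after each cell was thinned at random to 5000 UMIs, which left out 68 shallower cells. A ratio was called when it reached 2-fold in either direction with at least 20 thinned UMIs in all. Droplets that held more than 1 cell of the same hashtag were not looked for.

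Across all cells the 10 genes spanned a wide range of detection. *LTB* had 25485 UMIs in 3309 cells and *IGLL1* 14685 UMIs in 2611 cells. *LEF1* followed with 1756 UMIs in 1434 cells, *IL7R* with 897 in 321, *TCF7* with 665 in 627, *GATA3* with 264 in 171 and *BCL11B* with 110 in 77. *RAG1* had 74 UMIs, 1 in each of 74 cells, and *EBF1* had 14 UMIs in 12 cells. *DNTT* was not detected in any of the 7550 cells, which allows a share of cells with a UMI of up to 0.0397%. *RAG1*, *EBF1* and *DNTT* stayed under 20 thinned UMIs, so 7 of the 10 genes entered the comparisons.

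Most cells carried at most 1 of these genes. At full depth 26.0% of cells had none of the 10, 42.2% had 1, 24.2% had 2 and 6.53% had 3, while 71 cells had 4 and 6 cells had 5. Other genes of the T and B lineages also ranged from common to nearly undetected. *CD7*, a surface protein of early T and natural killer cells, had a UMI in 30.6% of cells and *CD3D*, a chain of the T cell receptor complex, in 29.8%. *PTCRA*, the pre-T cell receptor alpha chain, was found in 36 cells and *CD5* in 6 cells. The B cell genes *PAX5* and *MS4A1* were found in 9 and 2 cells, and *RAG2*, the partner of *RAG1*, in none.

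The sequences upstream of *IL7R*, *LTB*, *IGLL1* and *GATA3* are shown because these genes were called in 3 or all 4 of the comparisons below. Each is the 250 bases before the RefSeq start site (build GRCh38.p14), 5′ to 3′ on the strand of the gene, with matches to 3 motifs in capitals: TGTGGT (the core bound by RUNX factors), TGGGAA (the core bound by RBPJ, the DNA-binding partner of notch) and AGATAA (the core bound by GATA factors). Both strands were searched and no match overlapped another. For *LTB* and *GATA3*, which have several entries, the first was used. *IL7R* lies at chr5:35856641-35856890 on the plus strand, *LTB* at chr6:31582426-31582675 on the minus strand, *IGLL1* at chr22:23580291-23580540 on the minus strand and *GATA3* at chr10:8045083-8045332 on the plus strand.
IL7R: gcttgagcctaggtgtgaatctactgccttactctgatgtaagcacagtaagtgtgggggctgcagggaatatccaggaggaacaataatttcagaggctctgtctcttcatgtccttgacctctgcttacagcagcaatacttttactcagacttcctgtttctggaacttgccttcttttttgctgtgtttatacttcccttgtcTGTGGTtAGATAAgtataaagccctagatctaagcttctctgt
LTB: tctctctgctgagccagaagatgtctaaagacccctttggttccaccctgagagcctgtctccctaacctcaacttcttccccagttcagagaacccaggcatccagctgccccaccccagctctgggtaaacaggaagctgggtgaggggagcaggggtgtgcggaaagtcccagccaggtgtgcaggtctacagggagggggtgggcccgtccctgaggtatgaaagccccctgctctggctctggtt
IGLL1: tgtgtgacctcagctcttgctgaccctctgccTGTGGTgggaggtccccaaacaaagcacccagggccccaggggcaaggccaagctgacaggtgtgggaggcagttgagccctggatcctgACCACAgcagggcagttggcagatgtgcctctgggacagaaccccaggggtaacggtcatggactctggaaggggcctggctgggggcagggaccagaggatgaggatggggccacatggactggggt
GATA3: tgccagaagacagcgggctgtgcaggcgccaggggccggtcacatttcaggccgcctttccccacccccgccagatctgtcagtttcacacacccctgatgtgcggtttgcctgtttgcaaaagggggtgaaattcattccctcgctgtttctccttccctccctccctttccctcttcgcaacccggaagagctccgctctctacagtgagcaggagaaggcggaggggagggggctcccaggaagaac

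In *IL7R* the TGTGGT match began 43 bases before the start site and AGATAA 36 bases before it. *IGLL1* held TGTGGT 2 times, in the forward direction at 218 bases and in the reverse at 128 bases, while the windows of *LTB* and *GATA3* held none of the 3 motifs. All 10 genes had an entry. TGTGGT was present in 3 of the 10 windows, against 11.0% of all 35116 windows of this length. TGGGAA was present in 2, against 20.8%, and AGATAA in 2, against 9.17%. These are letter matches and no binding was measured.

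The comparison of *SPINK2*-positive cells with the others addressed where the genes sit relative to a marker of stem and multipotent progenitor cells. Of the 7 genes tested, 2 were at least 2-fold higher in the *SPINK2*-positive cells, *IGLL1* and *GATA3*, against 1.28% of all 14081 genes tested, and 1 was at least 2-fold lower, *IL7R*, against 7.98%. The median log2 ratio of the 7 genes was 0.20, and -0.01 over all genes tested. *GATA3* was at 4.09 CPM in 2589 *SPINK2*-positive cells and at 1.06 CPM in 4893 *SPINK2*-negative cells, a 3.85-fold difference (2.37 to 6.42). Among *SPINK2*-positive cells it rose with the amount of *SPINK2*, with 1.26 CPM in cells with 1 *SPINK2* UMI, 4.59 CPM in cells with 2 or 3 and 6.73 CPM in cells with at least 4. At 1 *SPINK2* UMI *GATA3* was thus close to its level in *SPINK2*-negative cells. These steps divide 53 thinned UMIs and were not split by hashtag, and *SPINK2* itself ranged from 35.7 to 79.8 CPM between hashtags. Within hashtags the ratio of *GATA3* was 2.68 in 0252, 3.83 in 0253, 6.12 in 0254 and 2.41 in 0255, and the interval excluded 1 in 0254 alone. With an MT- limit of 10% the log2 ratio of *GATA3* was 0.96, under the threshold, against 1.95.

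*IGLL1* was at 145 CPM in the *SPINK2*-positive cells and 71.2 CPM in the *SPINK2*-negative cells, a ratio of 2.04 (1.91 to 2.18) that lies just past the threshold. Its ratio was between 1.39 and 3.36 within the 4 hashtags, and all 4 were above 1. Without the cells highest for a list of mature blood or stromal markers, the log2 ratio of *IGLL1* went from 1.03 to 0.65, under the 2-fold threshold.

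*LTB* differed little as a whole, at 221 CPM with *SPINK2* and 192 CPM without (1.15-fold, 1.10 to 1.21). Within hashtags the order was not the same. The ratio of *LTB* was 1.77 (1.54 to 2.04) in hashtag 0252 and 1.40 (1.24 to 1.57) in 0253. It was 0.976 (0.899 to 1.06) in 0254 and 0.804 (0.746 to 0.866) in 0255. By counting error alone *LTB* was higher in *SPINK2*-positive cells in 2 hashtags and lower in 1. These intervals leave out the uneven spread of *LTB* over cells. The 646 cells with at least 10 of its UMIs held 75.4% of them, and the variance of its thinned counts was 14.4 times their mean. That factor was 3.83 for *IGLL1*, 3.19 for *IL7R* and 1.52 for *GATA3*, so their intervals leave out uneven spread too. Without the cells highest for C1Q or HLA class II genes, described below, the log2 ratio of *LTB* was 1.42 instead of 0.20. *LEF1* was 1.77-fold higher (1.45 to 2.16), at 15.1 against 8.50 CPM. *TCF7* (5.18 against 4.54 CPM) and *BCL11B* (0.927 against 0.981 CPM) had intervals that included 1, and *IL7R* was 5.27-fold lower (3.57 to 8.08), at 2.16 against 11.4 CPM. By hashtag, the *IL7R* ratio was 0.126 in 0253, 0.272 in 0254 and 0.527 (0.255 to 1.03) in 0255. In 0252 the *SPINK2*-positive cells had no *IL7R* UMI. The log2 ratio of *IL7R* went from -2.40 to -1.60 without the C1Q or HLA class II cells and to -1.78 without hashtag 0253.

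**Figure D1:**
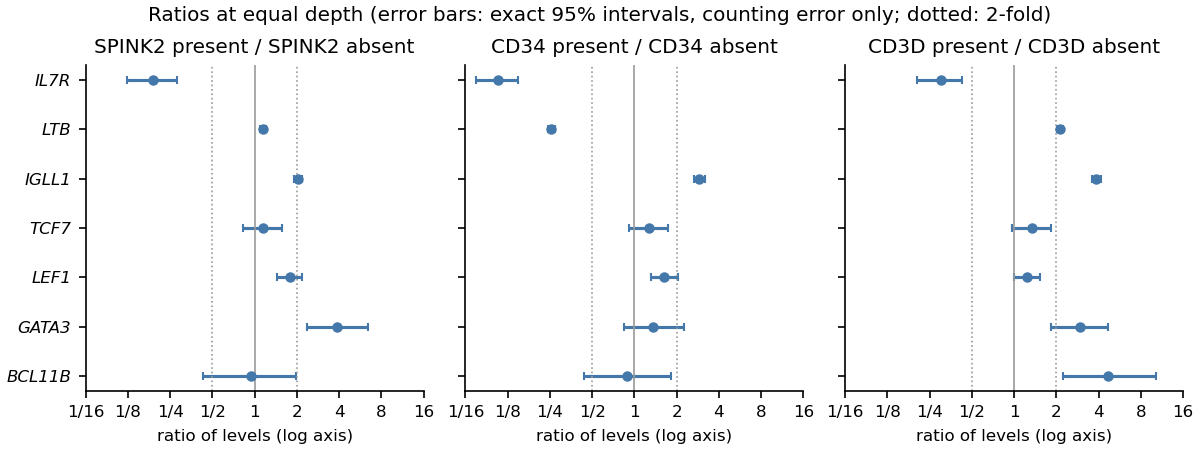
Ratio of the level in cells with a UMI of *SPINK2*, *CD34* or *CD3D* to that in cells without one (x axis, log scale), for the 7 genes with enough UMIs (y axis), as points with exact 95% intervals and with dotted lines at 2-fold. *IL7R* lies left of the lower dotted line in all 3 panels, *IGLL1* right of the upper one in all 3, and *LTB* changes side between *CD34* and *CD3D*.

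*CD34* encodes the surface protein by which progenitors are sorted, and the presence of its RNA separated *LTB* from *IGLL1*. The paper reports CD34 protein on the surface of nearly all nonadherent cells, while the RNA varied. *CD34*-negative here means only that no RNA UMI was found. In *CD34*-positive cells 1 of the 7 genes was at least 2-fold higher, against 4.25% of all genes tested, and 2 were at least 2-fold lower, against 8.62%. The gene that was higher was *IGLL1*, at 133 CPM in 4382 *CD34*-positive cells and 45.7 CPM in 3100 *CD34*-negative cells (2.91-fold, 2.68 to 3.16). *LTB* was 3.90-fold lower (3.71 to 4.11), at 91.6 against 357 CPM. *IL7R* was 9.44-fold lower (6.75 to 13.5), at 1.83 against 17.2 CPM.

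All 4 hashtags showed these orders. The ratio of *IGLL1* in *CD34*-positive to *CD34*-negative cells was between 2.12 and 4.63, that of *LTB* between 0.204 and 0.412, and that of *IL7R* between 0.0932 and 0.160. The *LTB* difference depended on the cells kept. Without the cells highest for C1Q or HLA class II genes its log2 ratio was -1.03 instead of -1.96. With an MT- limit of 10%, which left 736 of the 7550 cells, it turned to 0.39, so that *LTB* was then higher in *CD34*-positive cells. *LEF1* was 1.63-fold higher in *CD34*-positive cells (1.31 to 2.03), at 12.8 against 7.87 CPM, and the intervals of *TCF7*, *GATA3* and *BCL11B* included 1.

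*CD3D* is transcribed early in the T lineage. Of the 7 genes, 4 were at least 2-fold higher in *CD3D*-positive cells, *LTB*, *IGLL1*, *GATA3* and *BCL11B*, against 1.32% of all genes tested, and 1 was at least 2-fold lower, *IL7R*, against 6.21%. The median log2 ratio was 1.09 over the 7 genes and -0.01 over all genes tested. *BCL11B* was at 2.14 CPM in 2248 *CD3D*-positive cells and 0.459 CPM in 5234 *CD3D*-negative cells. The ratio of 4.66 (2.24 to 10.2) rests on 36 UMIs, 24 in the positive and 12 in the negative cells. Without the positive cells *BCL11B* would fall short of the minimum of UMIs for a call. Within hashtags the ratio of *BCL11B* was 2.10 in 0252, 2.32 in 0254 and 3.04 in 0255, the interval excluded 1 in 0255 alone, and 0253 had 1 UMI in all. With the empty group of 0253 set to 3 counts, the mean of the 4 log2 ratios was 1.08 against 2.22 over all cells. *IGLL1* was 3.86-fold higher (3.60 to 4.13), at 201 against 52.1 CPM, and *LTB* 2.13-fold higher (2.03 to 2.22), at 321 against 151 CPM. *GATA3* was 2.93-fold higher (1.84 to 4.70), at 3.91 against 1.34 CPM. By hashtag, the *GATA3* ratio was 4.87 in 0254, 2.44 in 0255, 1.71 in 0253 and lower still in 0252. Its interval excluded 1 in 0254 alone. The log2 ratio of *LTB* went under the 2-fold threshold as the mean of the within-hashtag values (0.92), without hashtag 0252 (0.83) and without the mature marker cells (0.99), and that of *GATA3* with an MT- limit of 10% (0.79).

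Among *CD3D*-positive cells, the levels of 3 of these genes also followed the amount of *CD3D*. From cells with 1 *CD3D* UMI to those with 2 or 3 and those with at least 4, *LTB* went from 208 to 287 and 475 CPM. *IGLL1* went from 118 to 217 and 286 CPM, and *GATA3* from 0.877 to 3.25 and 7.93 CPM. At 1 *CD3D* UMI *GATA3* was thus no higher than in *CD3D*-negative cells, at 1.34 CPM. These steps were not split by hashtag, and *CD3D* itself was at 22.3, 21.6, 96.7 and 144 CPM in hashtags 0252 to 0255. *IL7R* was 3.34-fold lower in *CD3D*-positive cells (2.34 to 4.89), and its log2 ratio went from -1.74 to -0.92, inside the 2-fold threshold, without hashtag 0253. Within hashtags the ratio of *LTB* was 3.40 (2.96 to 3.91) in 0252, 1.90 in 0253, 1.47 in 0254 and 1.33 (1.24 to 1.43) in 0255. It reached 2-fold in 0252 alone.

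The 8 combinations of the 3 marker genes showed that *LTB* and *IGLL1* peaked in different cells. *LTB* was highest in *CD34*-negative *CD3D*-positive cells, at 666 CPM (632 to 701) without *SPINK2* and 569 CPM with it. Its lowest level was 34.9 CPM (31.3 to 38.8), in cells with *CD34* alone. *IGLL1* was highest in *CD34*-positive *CD3D*-positive cells, at 284 CPM (263 to 306) without *SPINK2* and 232 CPM with it, and lowest in the 1990 cells with none of the 3, at 28.4 CPM. In those same 1990 cells *IL7R* was highest, at 22.9 CPM, against 0.772 CPM (0.210 to 1.98) in cells with all 3. *GATA3* was at 5.41 CPM with all 3 and at 6.85 CPM with *SPINK2* and *CD3D* but no *CD34*, 2 values whose intervals overlap. *BCL11B* was highest in cells with *CD3D* alone, at 4.61 CPM (2.21 to 8.48) from 10 UMIs.

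**Figure D2:**
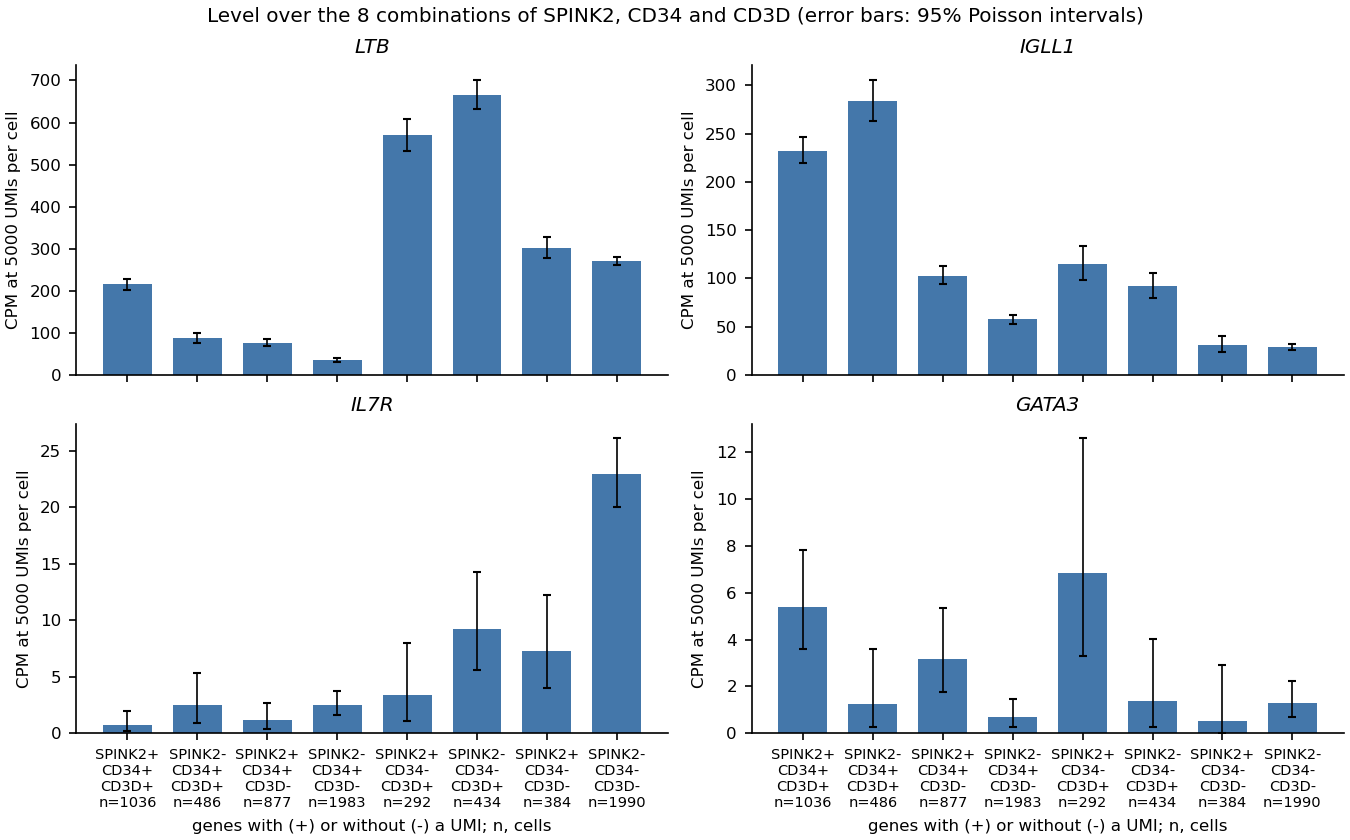
Level of *LTB*, *IGLL1*, *IL7R* and *GATA3* (y axis, CPM at 5000 UMIs per cell) in cells grouped by the presence of *SPINK2*, *CD34* and *CD3D* (x axis, with the number of cells), as bars with 95% Poisson intervals. *LTB* peaks in *CD34*-negative *CD3D*-positive cells, at 569 and 666 CPM, and *IGLL1* in *CD34*-positive *CD3D*-positive cells, at 232 and 284 CPM.

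Within single cells, the genes overlapped in part. After thinning, 57.6% of the 33 cells with *BCL11B* had *IGLL1* (39.2 to 74.5%), against 20.5% of the cells without it. *GATA3* was present in 4 of those 33 cells, against 0.819% of the others. These shares were not split by hashtag, and *BCL11B* had 3, 1, 10 and 22 thinned UMIs in hashtags 0252 to 0255. In the same order *IGLL1* was at 54.8, 55.2, 125 and 175 CPM. *IGLL1* was found in 19.0% of *LTB*-positive cells and 21.2% of *LTB*-negative cells. *IGLL1* was found in 5.00% of the 160 *IL7R*-positive cells (2.18 to 9.61%) and in 21.0% of the others. None of the 177 cells with *TCF7* had *BCL11B* or *GATA3*, which allows a share of up to 1.69% for each. In the cells without *TCF7* the shares were 0.452% and 0.890%. Both lie under that limit, so these zeros cannot show that the genes avoid each other.

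The genes were also read in cells ranked by marker lists of other blood, endothelial and stromal cells. For each list the 10% of cells with the highest share of UMIs on its genes were taken (1% for the rarer endothelial and stromal lists). Such a class is a range of a score and not a cell type, and many cells lay within a factor of 1.2 of the limits: 243 for HLA class II, 110 for C1Q, 213 for the eosinophil list, 348 for mast cells, 330 for platelet genes and 89 for endothelial genes, where the class itself held 76 cells. The classes overlap with progenitors, since 14.2% of *CD34*-positive cells were in the mast cell class and 14.4% in the platelet class.

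*LTB* was far higher in the 739 cells (of 755, the rest too shallow) highest for HLA class II genes, at 990 CPM (958 to 1023), than in the other cells, at 115 CPM. It was detected in 61.6% of these cells, and they held 39.0% of its UMIs. These cells were shallower, with a median of 12565 UMIs against 18856 outside. The 755 cells highest for the macrophage genes *C1QA*, *C1QB* and *C1QC* shared 517 cells with them, and in the 229 HLA class II cells that were not among the C1Q cells *LTB* was at 1370 CPM. Of the HLA class II cells 10.3% were *CD34*-positive, against 58.2% of all cells. *LTB* was at 14.2 CPM in the cells highest for *MPO*, *ELANE* and other granule protease genes and at 18.2 CPM in those highest for platelet genes such as *PF4*, where 7.10% of cells had a UMI. Free RNA in the droplets was not measured, and its part in these levels was not tested.

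*IGLL1*, unlike *LTB*, was low in the HLA class II and C1Q cells. The platelet class held few UMIs of either gene, 1.74% for *IGLL1* and 1.34% for *LTB*. *IGLL1* was at 5.14 CPM in the HLA class II cells and 7.87 CPM in the C1Q cells. It had no thinned UMI in the 69 collagen-high cells. It was at 213 CPM (198 to 228) in the cells highest for the eosinophil genes *EPX*, *PRG2* and *CLC* and at 128 CPM in those highest for mast cell genes. The eosinophil-list cells, 10% of all, held 21.0% of the *IGLL1* UMIs. *BCL11B* and *EBF1* also had more of their UMIs there, with 23.6% of 110 and 42.9% of 14. *IL7R* was highest in the C1Q cells, at 43.7 CPM (37.2 to 51.0), and they held 47.8% of its UMIs. The 45 cells with at least 5 *IL7R* UMIs held 49.7% of its UMIs, and 28 of them were C1Q cells. *GATA3* was at 21.9 CPM (9.46 to 43.2) in the 73 cells highest for endothelial genes, from 8 UMIs in 7 cells, against 1.92 CPM in the rest. These classes overlapped: 54 of the 76 endothelial-list cells were also in the platelet class and 47 in the globin class, and before thinning the endothelial-list cells held 26 *GATA3* UMIs and the whole platelet class 3. The 76 collagen-high cells, also 1% of all, held 14 of the 264 *GATA3* UMIs before thinning (5.30%). *GATA3* had no thinned UMI in the cells highest for mast cell genes.

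**Figure D3:**
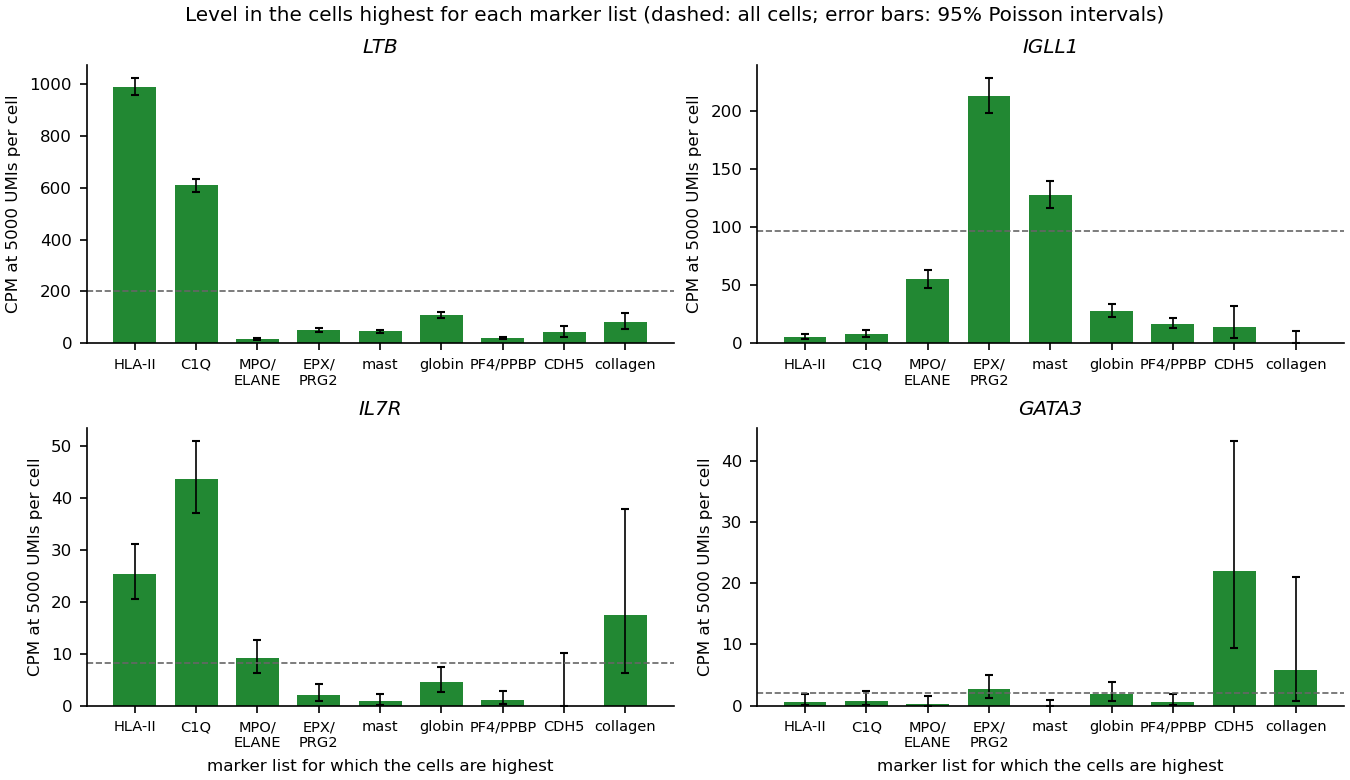
Level of *LTB*, *IGLL1*, *IL7R* and *GATA3* (y axis, CPM at 5000 UMIs per cell) in the cells highest for each of 9 marker lists (x axis), as bars with 95% Poisson intervals and a dashed line for all cells. *LTB* and *IL7R* lie far above the dashed line in the HLA class II and C1Q cells, *IGLL1* in the eosinophil-list cells and *GATA3* in the endothelial-list cells.

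Levels of *LTB*, *IGLL1*, *BCL11B*, *GATA3* and *IL7R* differed between hashtags. Of the 7 genes, 5 were at least 2-fold apart between the highest and the lowest hashtag, against 15.9% of 14082 genes tested. The pair of hashtags was picked for each gene from these same counts, and the intervals of the ranges do not allow for that choice. *LTB* was at 77.2 CPM in hashtag 0252, 122 in 0253, 271 in 0254 and 392 in 0255, a 5.07-fold range (4.69 to 5.49). *IGLL1* was at 54.8, 55.2, 125 and 175 CPM in the same order, a 3.19-fold range (2.89 to 3.52), and the intervals of 0252 and 0253 overlapped. *BCL11B* had 3, 1, 10 and 22 thinned UMIs, and the ratio of hashtag 0255 to 0253 was 28.1 with a counting interval of 4.55 to 1162. Without the UMIs of hashtag 0255 *BCL11B* would fall short of the minimum. Its place among the 5 genes thus rests on the hashtag where it was highest. All 3 genes were thus higher in hashtags 0254 and 0255 than in the other pair.

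*GATA3* was at 1.70, 1.01, 3.16 and 2.84 CPM in hashtags 0252 to 0255, and its highest level was 3.13-fold its lowest (1.48 to 7.19). *IL7R* had another order, with 17.2 CPM in hashtag 0253 against 3.98, 5.22 and 6.07 CPM in 0252, 0254 and 0255, a 4.32-fold range (3.06 to 6.20). Of the 45 cells with at least 5 *IL7R* UMIs, 27 carried hashtag 0253. *LEF1*, at 8.58 to 12.3 CPM, and *TCF7*, at 4.26 to 5.55 CPM, stayed under 2-fold. *RAG1* was found in 15 to 23 cells of each hashtag. Of the 12 cells with *EBF1*, 11 carried hashtag 0255 and none was *SPINK2*-positive.

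**Figure D4:**
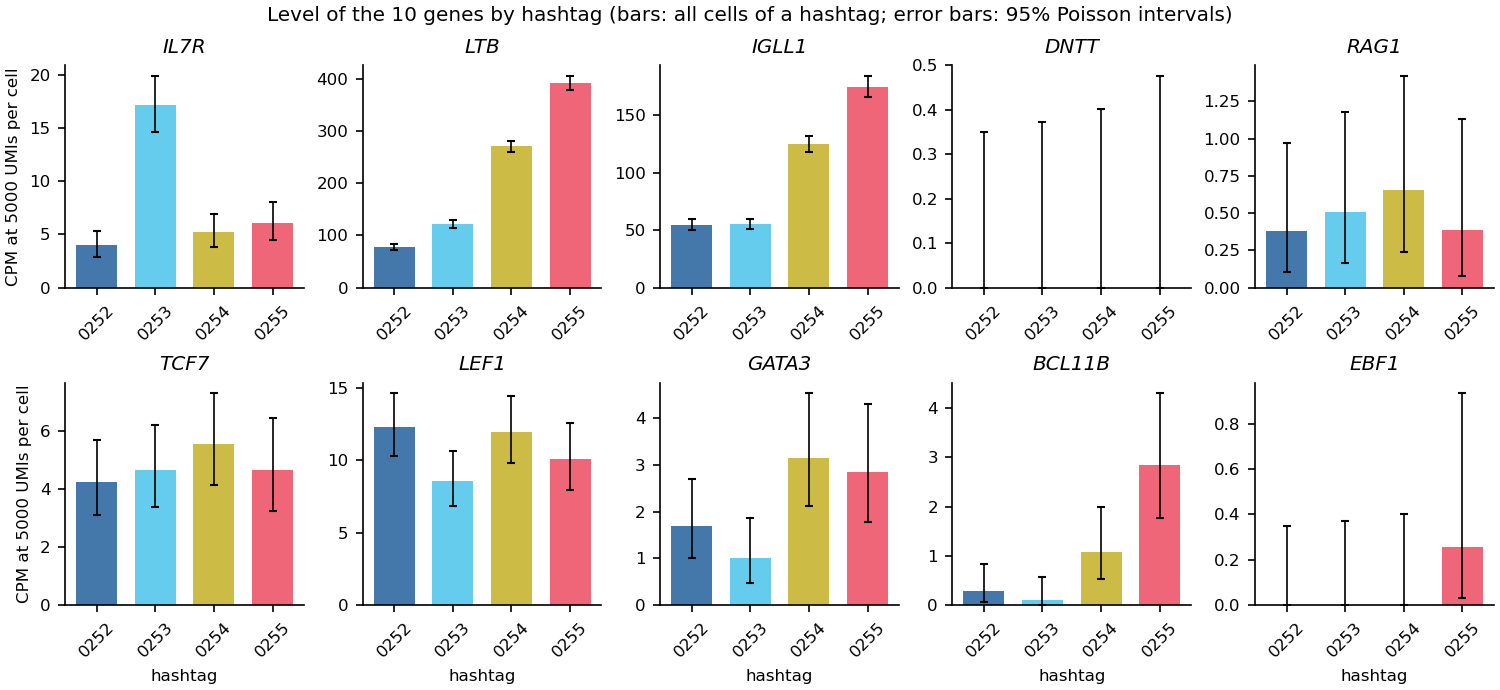
Level of each of the 10 genes (y axis, CPM at 5000 UMIs per cell, scaled per panel) in hashtags 0252, 0253, 0254 and 0255 (x axis), as bars with 95% Poisson intervals. *LTB*, *IGLL1* and *BCL11B* are highest in 0255 and next in 0254, *IL7R* in 0253, and *DNTT* has no UMI.

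The makeup of the hashtags differed as well, and its part in these levels was not tested. The granule protease cells made up 15.4% of hashtags 0252 and 0253 but 4.06% of 0254 and 2.80% of 0255, and the collagen-high cells 3.06% of 0255 against at most 0.650% of the others. HLA class II cells made up 7.41 to 11.8% of each hashtag. Within the HLA class II cells *LTB* was at 301, 741, 1123 and 1866 CPM in hashtags 0252 to 0255. Within the C1Q cells it was at 146, 414, 858 and 1316 CPM, and in *CD34*-positive cells at 51.1, 72.4, 106 and 165 CPM. The order of the hashtags for *LTB* was the same in these 3 classes as over all cells.

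In *SPINK2*-positive cells *LTB* was at 110, 153, 267 and 343 CPM, and in *CD3D*-positive cells at 180, 196, 337 and 452 CPM. *IGLL1* in *CD34*-positive cells was at 73.8, 84.5, 180 and 233 CPM, and in the eosinophil-list cells at 180, 114, 189 and 372 CPM. *IL7R* in the C1Q cells was at 24.1, 92.7, 26.9 and 29.6 CPM, so its excess in hashtag 0253 was present within that class. *GATA3* in *SPINK2*-positive cells was at 2.98, 2.15, 6.50 and 4.30 CPM.

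**Figure D5:**
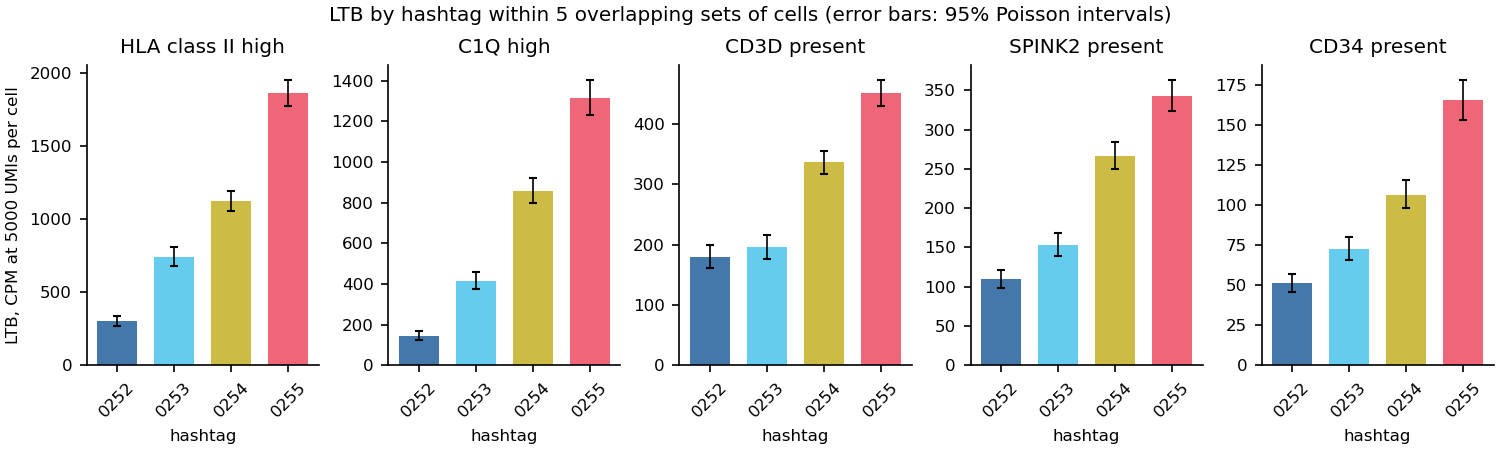
Level of *LTB* (y axis, CPM at 5000 UMIs per cell, scaled per panel) by hashtag (x axis) within 5 overlapping sets of cells, as bars with 95% Poisson intervals. The level is lowest in 0252 and highest in 0255 in each set, from 301 to 1866 CPM in the HLA class II cells and from 51.1 to 165 CPM in *CD34*-positive cells.

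Other lymphoid and related genes, a list of 56, gave the setting of these values. The list holds T, B and natural killer cell genes and notch targets, and also genes outside these classes, such as *HOPX* and *SOX4*. In *SPINK2*-positive cells 10 of the 45 tested (median log2 ratio 0.09) were at least 2-fold higher and 2 lower, against 1.28% and 7.98% of all genes tested. The largest were *HOPX*, 8.25-fold higher, *LCK*, a T cell kinase, 4.77-fold, the notch target *DTX1*, 3.98-fold, *CD3D*, 3.80-fold, and the homing receptor gene *CCR7*, 3.62-fold, while *MME*, a marker of lymphoid progenitors, was lower (0.232 against 2.08 CPM). In *CD34*-positive cells 7 of 45 were higher and 9 lower, against 4.25% and 8.62% of all genes tested. *HOPX* was 4.77-fold higher there, and *CD1A* was 8.28-fold, the B cell adaptor gene *BLNK* 5.51-fold and *KLRB1*, a receptor of natural killer and innate-like T cells, 4.24-fold lower.

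In *CD3D*-positive cells 11 of 44 (median log2 ratio 0.34) were higher and 1 lower, against 1.32% and 6.21% of all genes tested. *CD3G* was 14.9-fold, *DTX1* 10.8-fold, *CD3E* 8.30-fold, *LCK* 7.24-fold and *KLRB1* 3.26-fold higher, and *MME* was 4.21-fold lower. Between hashtags 17 of 45 were at least 2-fold apart, against 15.9% of all genes tested. *KLRB1* had a 19.5-fold range, *DTX1* 18.4-fold, the notch targets *HEY2* and *HES4* 17.9-fold and 8.61-fold, and *CD3G* 8.23-fold, each with its highest level in hashtag 0255. The lowest hashtag had only 4 thinned UMIs of *KLRB1* (interval 7.24 to 73.9), 4 of *DTX1* (6.79 to 70.0) and 1 of *HEY2* (2.73 to 757).

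The genes whose levels followed each member most closely were found over 32 groups of cells, split by hashtag and by the presence of *SPINK2*, *CD34* and *CD3D*, the smallest with 33 cells. The groups share 1 library, and the correlations are descriptions. *LTB* was closest to *SLC38A1* (Pearson's r = 0.92), the integrin gene *ITGB7* (0.92) and the transcription factor gene *RUNX3* (0.91). *IGLL1* was closest to *SEPT6* (0.90), *MARCKSL1* (0.88) and *KDM5B* (0.88). *IL7R* was closest to the ferritin gene *FTL* (0.88), *EFHD2* (0.87) and the leukocyte integrin gene *ITGB2* (0.86). The closest gene had an r of 0.83 for *LEF1* (*AC002454.1*), 0.74 for *GATA3* (*BAD*) and 0.73 for *TCF7* (*TTI2*).

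The genes lie at chr6:31548302-31550299 (*LTB*), chr22:23915312-23922489 (*IGLL1*), chr5:35852797-35879705 (*IL7R*), chr10:8087341-8117161 (*GATA3*) and chr14:99635624-99738534 (*BCL11B*) in hg19. All of the 10 genes but *IL7R* and *LTB* overlap genes on the other strand (*GATA3-AS1*, *LEF1-AS1*, *RAG2* and *SKP1* for 4 of them, and genes without a symbol for *IGLL1*, *BCL11B*, *DNTT* and *EBF1*). *GATA3* and *RAG1* also overlap a gene without a symbol on their own strand. The paper states that counting used the default parameters and does not name the strand setting. *IGLL1* has near-identical relatives in the immunoglobulin lambda locus, so reads shared with them may be missing from its counts.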

How the data were processed

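The single-cell RNA library and the matching hashtag table of day 5 nonadherent cells were used. Per the labels, the authors used Cell Ranger 6.0.1 with the hg19 genome. The deposited values are raw counts of UMIs per gene and barcode. They also deposited a hashtag call for each barcode, and all 10836 barcodes were present in both tables. Calls of doublet (1339) and negative (1009) were left out of the comparisons. With the limits on UMIs, genes and MT- share, 7550 of 8488 cells with a single call were kept. Thinning drew 5000 UMIs per cell without replacement (seed 1). Sums of 0 were set to 3 counts for ratios. Intervals were exact Poisson, Clopper-Pearson or conditional binomial at 95%. Positive cells had at least 1 UMI before thinning. Steps were tested on simulated data. The 10 genes, the marker lists and the list of other lymphoid genes were chosen with earlier results of these data known. All 10 genes were named, with called genes of the other list, largest first, and the 3 closest genes by correlation for members with at least 200 UMIs, among genes of at least 10 CPM. Gene positions came from an hg19 annotation. Python 3.11.15, numpy 2.4.6, scipy 1.17.1, pandas 2.3.3 and matplotlib 3.10.9 were used. No test between hashtags or cell groups was made, since there was 1 library. Alternatives were other depths of thinning, no thinning, other limits on cells, other rules for positive cells, and values within hashtags.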

Additional observations from a re-analysis of the deposited data

Results flagged for a closer look

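Barcodes left out of the comparisons also carried these genes, above the limit that a count of 0 allows. Of the 809 barcodes called negative for a hashtag and within the same limits, 72.8% (69.6 to 75.8%) had a UMI of at least 1 of the 10 genes, and of the 834 called doublet 80.7% (77.9 to 83.3%) did, against 74.0% of the 7550 cells kept. These shares are at full, unequal depth, so they do not rank the barcodes. The median was 15601 UMIs in the negative barcodes, 22004 in the doublets and 18318.5 in the cells kept. The negative barcodes had more *IGLL1*, at 200 CPM without thinning against 103 CPM in the cells kept, and less *LTB*, at 47.8 against 179 CPM, and less *IL7R*, at 0.783 against 6.31 CPM. In the doublets *LTB* was at 216 CPM and *IGLL1* at 96.2 CPM. The only *DNTT* UMI found was in a doublet.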

How the results depend on the processing

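No paired analysis was possible because there was 1 library with no replicates. Of 430 log2 ratios under other settings, 315 stayed within the interval of the reported value, 114 moved beyond it and 1 reversed. Only ratios that reached 2-fold in the reported setting could count as reversed. Smaller ratios that changed sign are among the 315 and the 114. One of them was *TCF7* in *SPINK2*-positive cells, which went from 0.19 to -0.40 with a second thinning seed. The 315 include the ratios from a setting with no minimum of UMIs. That setting changes only which genes can be called, so its ratios equal the reported values and could not move. The ratio that reversed was that of *LTB* in *CD34*-positive cells under an MT- limit of 10% (0.39). The count of 2 genes at least 2-fold higher in *SPINK2*-positive cells became 4 with that limit (*LTB*, *IGLL1*, *TCF7* and *LEF1*), while *GATA3* lost its call. It became 1 with positive cells taken from thinned counts, with summed UMIs and no thinning, with no limit on cells, without the cells highest for a mature marker list, and (chosen after seeing the data) without hashtag 0252 or 0253. *IGLL1* is the gene lost in each of these. Its log2 ratio was also under the threshold without the C1Q or HLA class II cells (0.83). There the count stayed at 2 because *LTB* reached 2-fold. The count of 1 for *CD34* became 2 with thinning to 2500 UMIs and with the MT- limit of 10%. The counts of 4 for *CD3D* and 5 between hashtags stayed within 1.5 times under every alternative run, which included a second thinning seed and leaving out each hashtag (the latter for the *CD3D* count alone) and C1Q and HLA class II cells, all chosen after seeing the data. Depth limits *BCL11B*, *GATA3*, *RAG1* and *EBF1*, whose counts are small. Causes were not tested.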
